A study of Mus musculus with 5 samples.

Results

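Tight junctions are belts of membrane protein strands that seal the space between neighbouring epithelial cells. Their strands are built of claudins, small proteins that cross the membrane several times and set which ions pass between cells. Occludin and the junctional adhesion molecule JAM-A lie beside them in the membrane, and the scaffold ZO-1 and cingulin tie the strands to actin and microtubules from the cytoplasm. Mouse embryonic stem (ES) cells grow as compact colonies and carry many such epithelial transcripts. Described here are 9 genes of this system, chosen by name from the 55147 gene symbols measured: the claudins Cldn3, Cldn4, Cldn6, Cldn7 and Cldn12, the membrane proteins Ocln (occludin) and F11r (JAM-A), and the cytoplasmic proteins Tjp1 (ZO-1) and Cgn (cingulin).

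The transcriptomes came from E14Tg2a, an established mouse ES cell line, in 3 samples of the wild-type parent cells (WT) and 2 samples of C3G knockout cells (C3G-KO, genotype C3G-/-). C3G, the product of Rapgef1, activates the small GTPase Rap1 by nucleotide exchange. In the knockout, a puromycin resistance cassette had been inserted by CRISPR in place of exons near the start of the gene, and resistant colonies were expanded as clones. The labels do not say which clone gave each C3G-KO sample. Both groups grew without treatment on gelatin in GMEM with serum and LIF. Values are TPM, in which read abundance is divided by transcript length and set to a fixed total per sample, so that levels of different genes can be set side by side. The number of reads behind a value is unknown. The study calls its samples independent, and the labels do not say whether they were separate cultures, so the spread that the p-values measure may be technical. Rapgef1 itself was at 11.56, 10.31 and 9.64 TPM in the WT samples against 3.92 and 5.55 TPM in the C3G-KO samples, as deposited. Transcripts without the replaced exons can remain in C3G-KO.

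Small RNAs took 62.9% to 67.2% of the TPM in WT and 77.8% and 69.5% in C3G-KO replicates 1 and 2. Protein-coding genes held 28.8% to 31.8% in WT and 18.6% and 26.0% in C3G-KO. C3G-KO replicate 1 was the sample with the larger small RNA share. TPM add up to a fixed total, and the median gene lay at a log2 fold change (C3G-KO minus WT) of -0.55 with TPM as deposited. Each sample was divided by a median-of-ratios factor, called scaling here, which moved that median to 0.0052. Scaled, Rapgef1 was at 8.7, 8.5 and 8.7 TPM in WT and 6.3 and 6.1 TPM in C3G-KO. Fold changes below are on log2(TPM + 1) after scaling unless they are said to be as deposited, and this scale understates the change of genes with low TPM. The test was limma over 12518 genes, with Benjamini-Hochberg adjustment and a threshold of 0.05. In such bulk samples, fewer cells that use a gene and less of its RNA per cell cannot be told apart.

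All 9 tight junction genes were lower in C3G-KO than in WT at an adjusted p under 0.05 from limma, and none was higher. Cldn3 and Ocln met the expression filter of 1 TPM in 2 or more samples only through WT, which favoured a call of lower. Over all genes tested, 16.6% were lower and 14.1% were higher. The 9 had been chosen with earlier results of these data known. With TPM as deposited the count was also 9 of 9 lower, against 56.8% of all genes lower and 1.45% higher. That background of 7109 lower genes depended on single samples, and was 2132 without WT replicate 2, 2584 without WT replicate 1, 2476 without C3G-KO replicate 1 and 10226 without C3G-KO replicate 2. In 9 of 9 genes both C3G-KO samples lay below all 3 WT samples, as they did in 29.3% of all genes after scaling and in 75.7% as deposited. The median log2 fold change of the 9 was -1.02 after scaling and -1.42 as deposited. Cldn3, Cldn4, Cldn6, Cldn7 and Cgn had log2 fold changes of -1 or lower at that threshold, as had 1.81% of all genes. That number depended on the setting. Without WT replicate 3 Cldn3 (-0.99) and Cldn6 (-0.94) were just above -1, which left 3. With the length and GC correction Cldn3 (-0.93) and Cgn (-0.91) were above -1, and with quantile normalization Cldn3 (-0.92) and Cgn (-0.9985). Cldn3 was at -0.91 without C3G-KO replicate 1. A replicate block also put some of these genes above -1. With a pseudocount of 5 all 9 were above it, the lowest being Cldn6 at -0.90.

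**Figure D1:**
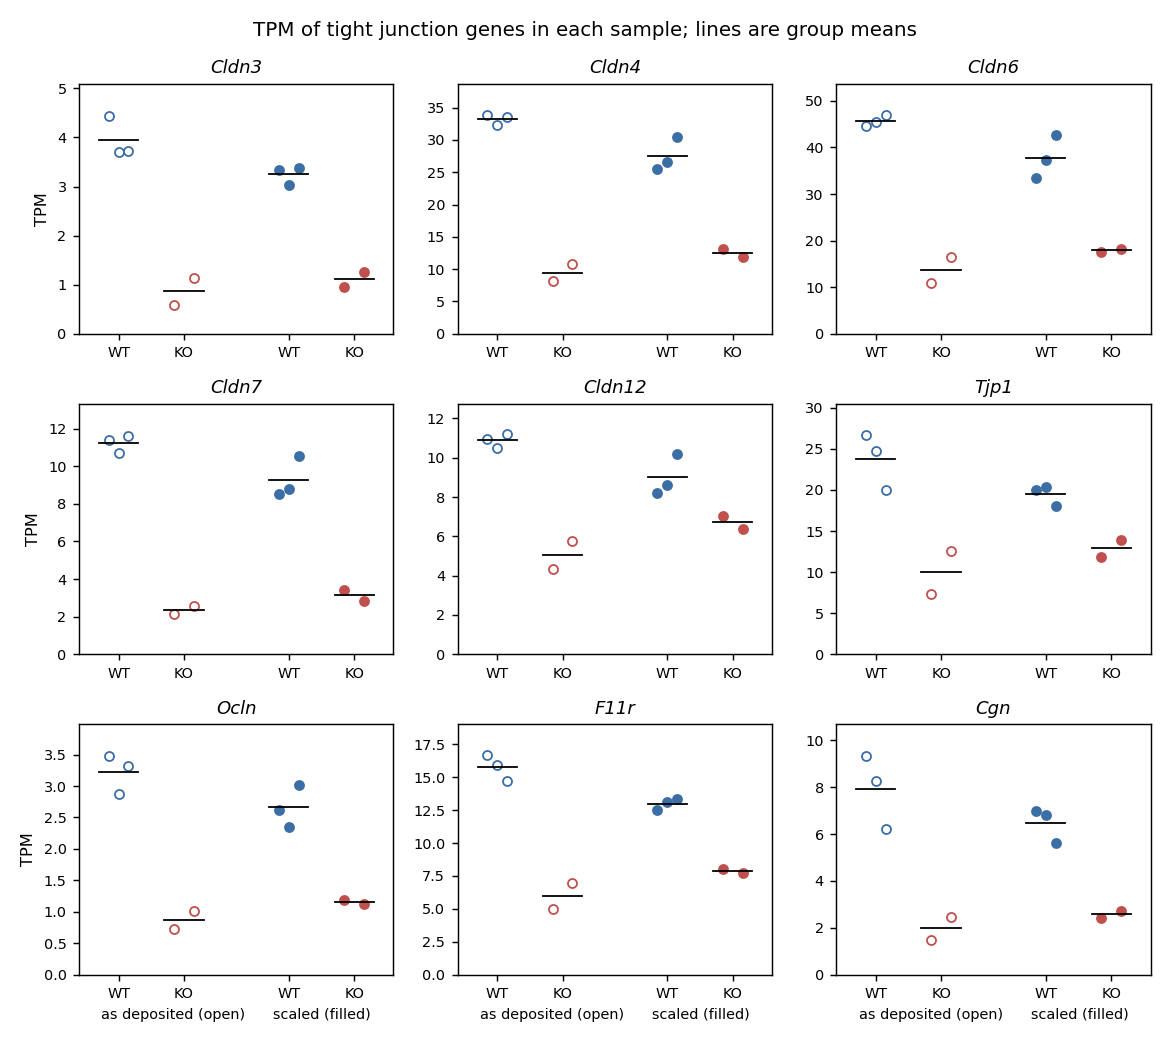
TPM of each of the 9 tight junction genes (vertical axes, from 0) in the 3 WT samples (blue) and the 2 C3G-KO samples (red), as deposited (open points) and after scaling (filled points), with lines at the group means. The red points lie below the blue points in every panel. Cldn12 shows the narrowest gap, with scaled values of 8.22 to 10.2 TPM in WT and 7.04 and 6.37 TPM in C3G-KO.

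Cldn3 and Cldn4, neighbours on chromosome 5 that both encode short claudins common in simple epithelia, are each annotated with 1 transcript. The genes lie 39280 bases apart on opposite strands. Both were lower in C3G-KO, by 2.94-fold for Cldn3 and 2.20-fold for Cldn4 in scaled means. Of 4 other tested genes within 50 kb of Cldn3, 1 was lower and 1 was higher after scaling, beside 16.6% and 14.1% of all genes. The higher gene also lay within 50 kb of Cldn4, as the only other tested gene there. The 250 bases before each RefSeq start (GRCm38.p6) follow, 5′ to 3′ on the strand of the gene, for Cldn3 at chr5:134985964-134986213 on the plus strand and for Cldn4 at chr5:134946935-134947184 on the minus strand. Capitals mark the letters of 4 motifs searched on both strands, AP-1 (TGANTCA), GRHL (AACCNGTT), TEAD (GGAATG) and the E-box that Snail and Zeb proteins bind (CAGGTG). No match in the windows of the 9 genes overlaps another.
Cldn3: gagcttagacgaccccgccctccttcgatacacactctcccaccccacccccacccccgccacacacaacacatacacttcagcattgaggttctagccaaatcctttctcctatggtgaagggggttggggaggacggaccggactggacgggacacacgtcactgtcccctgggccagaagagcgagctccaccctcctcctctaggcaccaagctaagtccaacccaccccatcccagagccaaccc
Cldn4: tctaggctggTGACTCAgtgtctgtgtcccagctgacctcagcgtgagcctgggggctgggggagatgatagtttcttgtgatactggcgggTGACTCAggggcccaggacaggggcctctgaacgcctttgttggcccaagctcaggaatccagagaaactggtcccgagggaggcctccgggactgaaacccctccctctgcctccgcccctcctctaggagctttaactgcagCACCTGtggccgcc
The Cldn4 window holds the AP-1 letters at 240 and 158 bases before the start and the E-box letters at 14 bases, while the Cldn3 window holds none of the 4 motifs. These are matches of letters in a window and were not tested as binding sites.

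RefSeq lists 13 promoter windows for the 9 genes, and the same letters were counted in all 32851 promoter windows of that length. The AP-1 letters stood in 2 of the 13 windows (Cldn4 and F11r), against 6.75% of all windows, and the E-box letters in 5 (Cldn4, Cldn6, Cldn7, F11r and Ocln), against 17.2%. The GRHL letters stood in the Cgn window, 29 bases before its start, against 1.79% of all windows, and the TEAD letters in a Cldn7 window, against 12.6%. That Cldn7 window adjoins the start of the minor transcript Cldn7-204. The E-box letters lie in the other Cldn7 window, at the start of the main transcript Cldn7-201. In Ocln and Cldn6 the E-box letters lie past the annotated starts of Ocln-201 and Cldn6-201, within the spans of these transcripts. The other Ocln window, which adjoins the start of Ocln-201, holds none. A GC box (GGGCGG), a common promoter element that Sp and Klf proteins bind, was in 11 of the 13 windows, against 32.7% of all. The Cldn12 windows overlap each other, as do the Ocln windows, so the 13 are not separate stretches. The same GC box letters were counted in more than a single Cldn12 window. The windows of these genes had a median GC content of 60.8% and a median of 14 CpG, against 52.4% and 6 over all windows. No count here was tested.

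Cldn6 (ENSMUSG00000023906, chromosome 17 of GRCm38, 23679249 to 23682446) is a claudin known from early embryonic epithelia and pluripotent cells. It was the most abundant of the 9, at 44.59, 45.54 and 47.00 TPM in WT replicates 1 to 3 and 10.89 and 16.46 TPM in C3G-KO replicates 1 and 2. Scaled, the values were 33.5, 37.4 and 42.6 TPM in WT and 17.6 and 18.2 TPM in C3G-KO. The groups were far apart on either scale, and the C3G-KO samples lay closer to each other after scaling than before. The scaled mean was 37.8 ± 4.61 TPM in WT (SD, n = 3) and 17.9 ± 0.401 TPM in C3G-KO (SD, n = 2), a 2.11-fold difference. The log2 fold change was -1.03 (SE 0.11, adjusted p = 0.00153 from limma), and -1.70 as deposited.

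Cldn4 (ENSMUSG00000047501, chromosome 5, 134945119 to 134946934), a claudin that tightens the barrier against sodium, came next among the claudins. It had 33.89, 32.34 and 33.60 TPM in WT and 8.10 and 10.76 TPM in C3G-KO. The WT samples were close to each other and both C3G-KO samples were far below them. After scaling the mean was 27.5 ± 2.66 TPM in WT (SD, n = 3) and 12.5 ± 0.861 TPM in C3G-KO (SD, n = 2). The log2 fold change was -1.07 (SE 0.10, adjusted p = 0.00095 from limma), and -1.73 as deposited.

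Cldn7 (ENSMUSG00000018569, chromosome 11, 69964779 to 69967885), which also sits on the lateral membrane away from the strands, had the lowest fold change of the 9, ranking 114 from the bottom of the 12518 genes. Its TPM were 11.40, 10.70 and 11.63 in WT and 2.12 and 2.57 in C3G-KO, and scaled they were 8.55, 8.79 and 10.6 in WT and 3.43 and 2.84 in C3G-KO. The WT values exceeded those of C3G-KO 2.96-fold after scaling, and the log2 fold change was -1.31 (SE 0.11, adjusted p = 0.000731 from limma). As deposited it was -1.87.

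Cldn3 (ENSMUSG00000070473, chromosome 5, 134986214 to 134987472) was the least abundant of the 5 claudins. Its TPM were 4.44, 3.70 and 3.73 in WT and 0.59 and 1.14 in C3G-KO. The fold was like that of Cldn7, with the scaled C3G-KO mean at 34.1% of the WT mean for Cldn3 and 33.7% for Cldn7. On the log2(TPM + 1) scale the fold change of Cldn3 was -1.02 (SE 0.09, adjusted p = 0.000913 from limma), and -1.42 as deposited. Wbscr25, a gene on the opposite strand, overlaps Cldn3, and it reached at most 0.08 TPM in any sample.

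Cldn12 (ENSMUSG00000046798, chromosome 5, 5489537 to 5514958), an unusual claudin that lacks the motif by which others bind ZO-1, had the smallest change. Its TPM were 10.96, 10.51 and 11.23 in WT and 4.35 and 5.76 in C3G-KO. In scaled values the gap between the lowest WT sample, 8.22 TPM, and the higher C3G-KO sample, 7.04 TPM, was close to the WT SD of 1.04 TPM. The log2 fold change was -0.37 (SE 0.10, adjusted p = 0.0359 from limma), and -0.98 as deposited. This call rested on single samples. It was lost without WT replicate 2 (-0.40, adjusted p = 0.0788 from limma), WT replicate 3 (-0.29, adjusted p = 0.0529), C3G-KO replicate 1 (-0.44, adjusted p = 0.0808) or C3G-KO replicate 2 (-0.31, adjusted p = 0.157), and with a replicate block (-0.29, adjusted p = 0.0733). The other 8 genes passed in each of these fits.

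The make-up of the claudin transcripts was compared by shares. All 34 claudin symbols together held 106 to 110 TPM in WT and 27.7 and 39.1 TPM in C3G-KO as deposited, or 81.7 to 99.9 and 44.9 and 43.2 scaled TPM. Shares within this sum do not depend on scaling. Cldn6 held 40.9% to 43.0% of it in WT and 39.3% and 42.2% in C3G-KO, ranges that overlap. Cldn12 held 9.93% to 10.2% in WT and 15.7% and 14.8% in C3G-KO, and Cldn7 10.1% to 10.6% and 7.65% and 6.58%, so that Cldn7 and Cldn12, level with each other in WT, stood apart in C3G-KO. Cldn4 held 30.5% to 31.1% in WT and 29.2% and 27.6% in C3G-KO. The shares were not tested.

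Few other claudins were measurable. Of the 29 other claudin symbols, 27 stayed under the expression filter with at most 0.45 TPM in any sample, and 11 of these were listed at 0 in all 5 samples. Cldn9, which lies on the minus strand with its 3′ end 138 bases past that of Cldn6, was at 0.84, 1.17 and 1.24 TPM in WT and 0.58 and 0.72 TPM in C3G-KO (adjusted p = 0.917 from limma). Cldn20 was at 0.65 to 1.39 TPM in WT and 0.47 and 0.80 TPM in C3G-KO (adjusted p = 0.960). Neither passed the test.

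Among the other membrane proteins, F11r (ENSMUSG00000038235, chromosome 1, 171437535 to 171464603) encodes JAM-A, an immunoglobulin-like adhesion molecule that recruits polarity proteins. It had 16.70, 15.95 and 14.75 TPM in WT and 4.97 and 6.98 TPM in C3G-KO. Scaled, WT ran from 12.5 to 13.4 TPM and C3G-KO was at 8.05 and 7.72 TPM, so that each group was tight and the groups did not overlap. The log2 fold change was -0.66 (SE 0.06, adjusted p = 0.00117 from limma), and -1.28 as deposited.

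Ocln (ENSMUSG00000021638, chromosome 13, 100496507 to 100552718), the gene of occludin, which spans the membrane and binds ZO-1, had the lowest level of the 9 in WT. Its TPM were 3.48, 2.87 and 3.32 in WT and 0.73 and 1.02 in C3G-KO, and the scaled means were 2.66 ± 0.331 TPM (SD, n = 3) and 1.16 ± 0.0383 TPM (SD, n = 2). That is 2.30-fold, more than the log2 fold change of -0.76 (SE 0.09, adjusted p = 0.00271 from limma) shows at such low TPM. As deposited it was -1.17.

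On the cytoplasmic side, Tjp1 (ENSMUSG00000030516, chromosome 7, 65296165 to 65527781) encodes ZO-1, the scaffold on which claudins assemble, and after Cldn6 and Cldn4 it was the most abundant of the 9 in WT. Its TPM were 26.72, 24.74 and 19.94 in WT and 7.34 and 12.57 in C3G-KO, with WT replicate 3 the lowest of its group. Scaling drew the values together, to 20.1, 20.3 and 18.1 TPM in WT and 11.9 and 13.9 TPM in C3G-KO. The log2 fold change was -0.56 (SE 0.09, adjusted p = 0.00698 from limma), and -1.21 as deposited. The 3 predicted genes that overlap Tjp1 reached at most 0.31 TPM.

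Cgn (ENSMUSG00000068876, chromosome 3, 94760069 to 94786492), whose product cingulin binds ZO-1 and holds the exchange factor GEF-H1 at the junction, had a lower log2 fold change than Tjp1, a difference that was not tested. Its TPM were 9.32, 8.29 and 6.21 in WT and 1.5 and 2.46 in C3G-KO. The scaled means were 6.48 ± 0.736 TPM (SD, n = 3) and 2.57 ± 0.206 TPM (SD, n = 2), 2.52-fold apart. The log2 fold change was -1.06 (SE 0.10, adjusted p = 0.00113 from limma), and -1.59 as deposited. Arhgef2, the gene of GEF-H1, was at 12.2 TPM in WT and 6.68 TPM in C3G-KO (means as deposited) and did not pass after scaling (adjusted p = 0.092).

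In order of mean TPM as deposited, WT ran from Cldn6 (45.7 ± 1.21, SD, n = 3) through Cldn4 (33.3 ± 0.824), Tjp1 (23.8 ± 3.49), F11r (15.8 ± 0.984), Cldn7 (11.2 ± 0.484), Cldn12 (10.9 ± 0.364), Cgn (7.94 ± 1.58) and Cldn3 (3.96 ± 0.419) to Ocln (3.22 ± 0.316). Neighbours in this order differed by more than their spread, with the exception of Cldn7 and Cldn12, whose sample values overlap. In C3G-KO the order began with Cldn6 (13.7 ± 3.94, SD, n = 2), Tjp1 (9.96 ± 3.70) and Cldn4 (9.43 ± 1.88), whose values overlap in part, and Cldn12 (5.06 ± 0.997) stood above Cldn7 (2.35 ± 0.318).

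**Figure D2:**
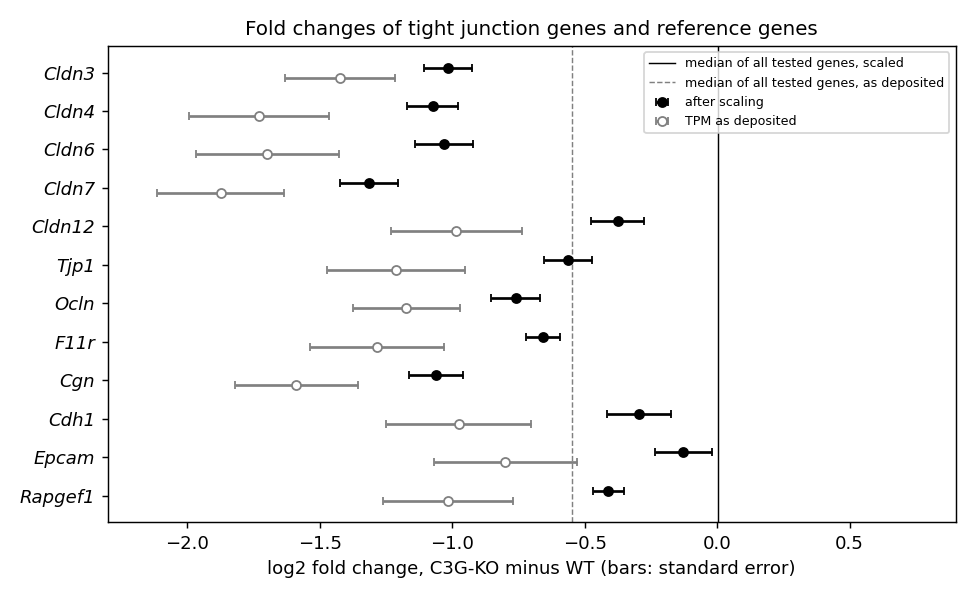
Log2 fold change (C3G-KO minus WT, horizontal axis) of the 9 tight junction genes and of Cdh1, Epcam and Rapgef1, after scaling (filled points) and as deposited (open points), with bars of 1 standard error and vertical lines at the median of all genes tested. After scaling the 9 genes run from -1.31 for Cldn7 to -0.37 for Cldn12, all to the left of the median gene.

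Cdh1 (E-cadherin, the adhesion molecule of the adherens junction) and Epcam (an epithelial surface adhesion protein that binds claudin-7) served as reference points, since a ratio of genes within a sample does not depend on how the sample is scaled. Cdh1 was at 64.05, 57.49 and 48.60 TPM in WT and 20.35 and 38.86 TPM in C3G-KO, with a log2 fold change of -0.30 (SE 0.12, adjusted p = 0.112 from limma) after scaling and -0.98 (adjusted p = 0.0019) as deposited. Without C3G-KO replicate 2 the scaled value of Cdh1 passed (-0.48, adjusted p = 0.0302 from limma), as it did with scaling to protein-coding TPM (-0.51, adjusted p = 0.0342) and with quantile normalization (-0.45, adjusted p = 0.0434). Epcam was at 40.27, 39.33 and 36.17 TPM in WT and 15.98 and 29.39 TPM in C3G-KO, with -0.13 (SE 0.11, adjusted p = 0.409) after scaling, 0.03 without C3G-KO replicate 1 and -0.80 (adjusted p = 0.00967) as deposited.

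Relative to Cdh1, the mean log2 ratio was lower in C3G-KO for 9 of 9 tight junction genes, by -1.26 for Cldn7 and Cldn3, -1.02 for Cgn, -0.89 for Ocln, -0.83 for Cldn4, -0.77 for Cldn6, -0.42 for F11r, -0.30 for Tjp1 and -0.12 for Cldn12. The samples of the groups did not overlap for 8 of the 9, and for Cldn12 they did. Relative to Epcam the differences ran from -1.44 for Cldn7 to -0.29 for Cldn12, again without overlap for 8 of 9. The share of all genes without overlap was not computed for such ratios. In scaled values, both C3G-KO samples lay below all WT samples in 29.3% of all genes. An exact two-sided permutation test gives 0.2 for a ratio without overlap, which is the smallest p that 3 against 2 samples allow, and 0.225 after Benjamini-Hochberg adjustment over the 18 ratios. This test cannot reach 0.05 in this design.

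**Figure D3:**
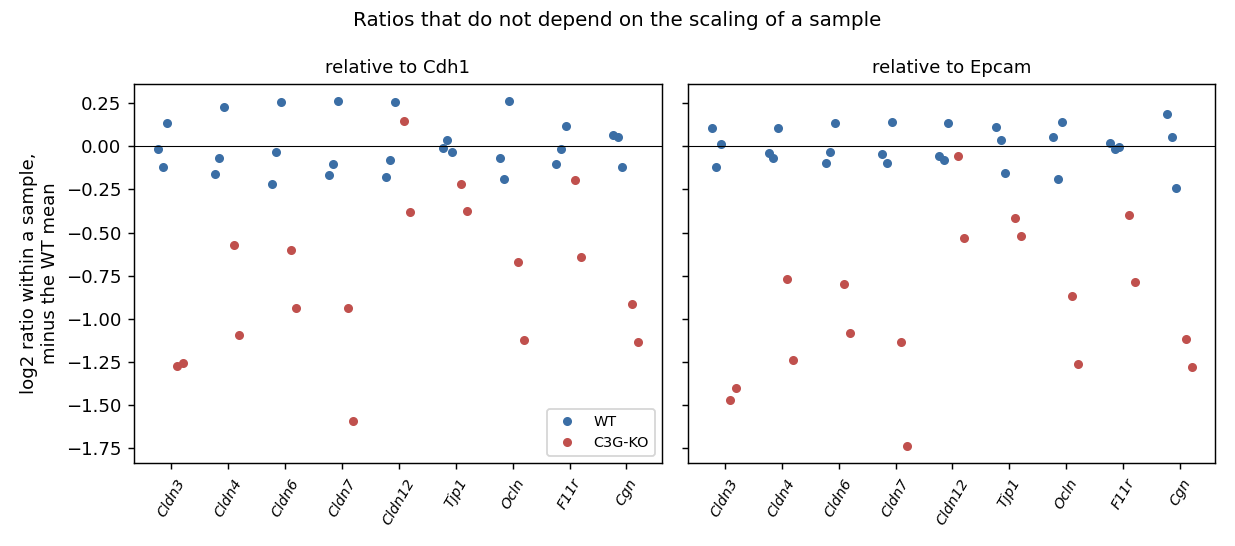
Log2 ratio of each tight junction gene to Cdh1 (left panel) or to Epcam (right panel) within each sample, minus the WT mean (vertical axis, log2), for 3 WT samples (blue) and 2 C3G-KO samples (red). The C3G-KO points lie below the WT points for every gene but Cldn12, where they overlap.

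Most of the 9 genes are annotated with several transcripts, from 1 each for Cldn3 and Cldn4 to 8 for Cldn12, and the deposited TPM are per transcript. The main transcripts of Cldn6 kept similar shares of their gene, with Cldn6-202 at 60.2% ± 3.81 (SD, n = 3) in WT and 64.6% ± 1.92 (SD, n = 2) in C3G-KO and Cldn6-201 at 34.9% and 30.5%. The same held for Tjp1, where Tjp1-201 held 52.7% and 50.6% and Tjp1-202 held 31.0% and 32.8%. F11r-201 held 94.1% and 94.0% of F11r, and Cldn7-201 held 92.0% ± 4.55 (SD, n = 3) and 85.9% ± 4.03 (SD, n = 2) of Cldn7.

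The make-up of Cldn12 and Ocln was less alike between the groups. Cldn12-201 was at 7.05, 6.30 and 7.60 TPM in WT and 1.68 and 2.73 TPM in C3G-KO, and its share of the gene was 63.98% ± 3.88 (SD, n = 3) in WT and 43.0% ± 6.21 (SD, n = 2) in C3G-KO, without overlap. Its scaled mean was 2.02-fold higher in WT, beside 1.34-fold for the whole gene. Cldn12-203 was at 0.76, 1.28 and 0.09 TPM in WT and 1.17 and 0.66 TPM in C3G-KO, values that overlap. For Ocln, Ocln-205 was at 0.89, 1.69 and 1.05 TPM in WT and 0.12 and 0.07 TPM in C3G-KO, and Ocln-201 was at 1.19, 0.54 and 1.18 TPM in WT and 0.41 and 0.54 TPM in C3G-KO. Ocln-201 thus held 29.5% ± 9.29 (SD, n = 3) of the gene in WT and 54.6% ± 2.28 (SD, n = 2) in C3G-KO. Transcripts of a gene share most of their sequence, so the split between them is an estimate, and it is uncertain at 1 or 2 TPM. The shares were not tested.

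**Figure D4:**
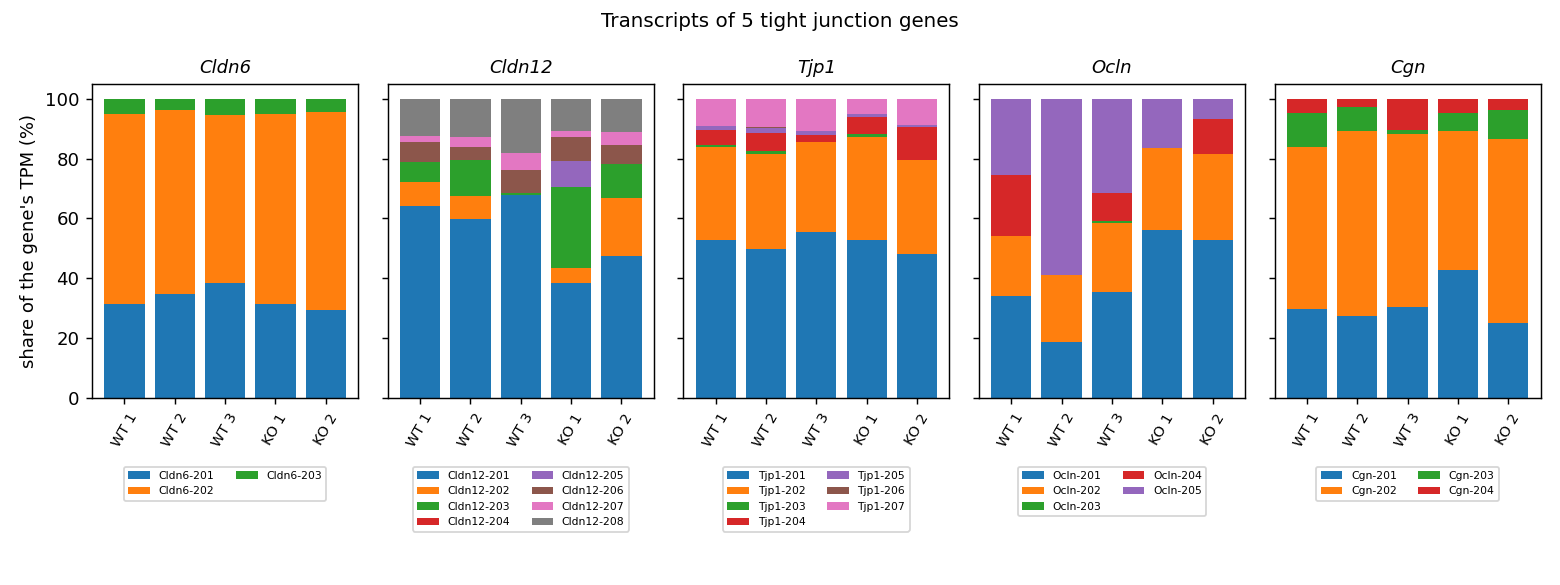
Share of each annotated transcript in its gene's TPM (vertical axis, percent) for Cldn6, Cldn12, Tjp1, Ocln and Cgn in the 3 WT and 2 C3G-KO samples (bars). Cldn12-201 takes 59.9% to 67.7% of the WT bars and 38.6% and 47.4% of the C3G-KO bars, while the Cldn6 and Tjp1 bars look alike in both groups.

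To see the 9 genes beside the rest of the junction, a list of 66 further tight junction symbols was written by role, of which 34 passed the expression filter. After scaling 11 of the 34 were lower, 2 were higher and 21 did not pass, with a median log2 fold change of -0.10. The 11 are 32.4% of the 34, beside 16.6% of all genes lower and 14.1% higher. The lowest scaled C3G-KO mean relative to WT among the 34 was that of Marveld2, at 36.2%. Some of the 11, Marveld2 among them, met the expression filter only through WT, which favoured a call of lower. As deposited 24 were lower and none was higher at an adjusted p under 0.05 from limma, beside 56.8% of all genes lower. After scaling the count of lower genes on the list was 5 without WT replicate 2, when 1323 of all 12518 genes were lower, and 5 without C3G-KO replicate 1, when 1348 were.

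The membrane proteins beyond claudins had 5 lower and 1 higher among 8 tested, beside 16.6% and 14.1% of all genes. Some of the 5, Marveld2 among them, reached 1 TPM in WT samples alone, so the expression filter favoured a call of lower for them. Marveld2, which encodes tricellulin, the relative of occludin at corners between cells, was at 1.66, 1.56 and 1.30 TPM in WT and 0.30 and 0.37 TPM in C3G-KO, with a log2 fold change of -0.63 (SE 0.08, adjusted p = 0.00285 from limma). It lies within 50 kb of Ocln. Lsr, which brings tricellulin to those corners, was lower by -0.38 (adjusted p = 0.0151), and Cxadr, an adhesion protein and virus receptor, by -0.41 (adjusted p = 0.0117). Without C3G-KO replicate 1 neither passed (Lsr -0.33, adjusted p = 0.0774, Cxadr -0.38, adjusted p = 0.0624), and Lsr did not pass without WT replicate 2 (-0.39, adjusted p = 0.0538). Jam2, a relative of F11r, was higher after scaling at 0.42 (SE 0.06, adjusted p = 0.00517 from limma) but at -0.25 as deposited, with mean TPM of 23.5 in WT and 20.0 in C3G-KO.

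The cytoplasmic scaffolds had 1 lower, 1 higher and 5 that did not pass among 7 tested, beside 16.6% and 14.1% of all genes. Ybx3, a transcription factor that ZO-1 holds at the junction, was at 64.9 TPM in WT and 42.6 TPM in C3G-KO as deposited (adjusted p = 0.887 from limma). Cgnl1 (paracingulin), the relative of Cgn, was higher after scaling at 0.41 (adjusted p = 0.0303) and at -0.12 as deposited, and it did not pass in 4 of the 5 fits that leave out a sample, with values from 0.25 without C3G-KO replicate 2 (adjusted p = 0.104) to 0.42 without WT replicate 1 (adjusted p = 0.0679) or 2 (adjusted p = 0.0744) and 0.37 without WT replicate 3 (adjusted p = 0.0699). Magi3, a scaffold with several PDZ domains, was at -0.30 (adjusted p = 0.0215) and passed in 1 of these 5 fits, the other values lying between -0.32 without C3G-KO replicate 2 (adjusted p = 0.0677) and -0.27 without WT replicate 1 (adjusted p = 0.0566), with -0.30 without WT replicate 2 (adjusted p = 0.0784) and -0.28 without C3G-KO replicate 1 (adjusted p = 0.0876).

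Polarity proteins, which place the junction at the apical edge, had 5 lower and none higher among 11 tested, beside 16.6% and 14.1% of all genes. Patj, a Crumbs complex scaffold that binds ZO-3 and claudins, went from a mean of 12.4 to 4.30 TPM as deposited and had a scaled log2 fold change of -0.75 (SE 0.06, adjusted p = 0.000578 from limma). Llgl2, a Lethal giant larvae homologue of the lateral side, went from 27.3 to 11.2 TPM with -0.59 (adjusted p = 0.00204), and Pard6g, a Par6 adaptor of atypical protein kinase C, had -0.63 (adjusted p = 0.00182). These 3 passed with any sample left out. Pard3, the Par3 scaffold that F11r binds, had -0.45 (adjusted p = 0.0341) and did not pass without WT replicate 1 (-0.38, adjusted p = 0.0819), WT replicate 2 (-0.47, adjusted p = 0.0809) or C3G-KO replicate 1 (-0.30, adjusted p = 0.147). Prkci, the kinase of the same complex, was at 28.8 and 16.6 TPM (adjusted p = 0.267).

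Transcription factors known to switch epithelial junction genes on or off were counted from a further list. Of 8 tested activators 4 were lower and none higher, beside 16.6% and 14.1% of all genes, and 2 of the 4 did not pass with some samples left out. Grhl3, a Grainyhead factor of surface epithelia, went from a mean of 6.07 TPM in WT to 2.20 TPM in C3G-KO as deposited, with a scaled log2 fold change of -0.62 (SE 0.07, adjusted p = 0.00179 from limma). Cdx2, the trophectoderm and gut factor, went from 0.983 to 0.07 TPM with -0.74 (adjusted p = 0.00227). Since Cdx2 reached 1 TPM in WT samples alone, the expression filter favoured a call of lower for it. Klf5 went from 53.5 to 24.3 TPM with -0.45 (adjusted p = 0.0257) and Tfap2c from 13.4 to 6.30 TPM with -0.38 (adjusted p = 0.0203), and neither passed without WT replicate 2 (-0.44, adjusted p = 0.0842, and -0.38, adjusted p = 0.0695) or C3G-KO replicate 1 (-0.38, adjusted p = 0.128, and -0.31, adjusted p = 0.101). Klf5 also did not pass without WT replicate 1 (-0.38, adjusted p = 0.0539) or C3G-KO replicate 2 (-0.52, adjusted p = 0.0639). Grhl2, a main activator of Cldn4 in epithelia, was at 11.8 and 7.51 TPM and did not pass (adjusted p = 0.758).

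Of 4 tested repressors 3 were lower in C3G-KO and none was higher, beside 16.6% and 14.1% of all genes. These 3 reached 1 TPM in WT samples alone, so the expression filter favoured a call of lower for them. Snai3, a Snail family factor, went from a mean of 2.48 to 0.525 TPM with a scaled log2 fold change of -0.83 (SE 0.10, adjusted p = 0.00239 from limma), and Zeb2 from 1.80 to 0.39 TPM with -0.69 (SE 0.11, adjusted p = 0.00704). Twist1 was at 1.07 and 0.31 TPM with -0.44 (adjusted p = 0.021), and it did not pass without WT replicate 1 (-0.44, adjusted p = 0.0524), WT replicate 2 (-0.42, adjusted p = 0.0769) or C3G-KO replicate 1 (-0.33, adjusted p = 0.101). Zeb1 was at 3.75 and 2.36 TPM (adjusted p = 0.938). All 4 had lower means in WT than Cldn3.

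Markers of ES cells and of other cell types that such cultures can hold were counted as well, beside 16.6% of all genes lower and 14.1% higher after scaling. Pou5f1 (Oct4), which defines pluripotent cells, was at 357.45 to 399.76 TPM in WT and 229.58 and 298.49 TPM in C3G-KO as deposited. Scaled, it was at 268 to 363 TPM in WT and 372 and 330 TPM in C3G-KO. It passed neither after scaling (0.18, adjusted p = 0.413 from limma) nor as deposited (adjusted p = 0.0869). The 8 ES cell markers were all tested, with 1 higher (Dppa5a) and 7 that did not pass. Their summed scaled level was 1658 to 2075 TPM in WT and 2859 and 2543 TPM in C3G-KO, but 2211 to 2337 TPM and 1766 and 2300 TPM as deposited. Most of the scaled sum was Dppa5a, at 981 to 1290 TPM in WT and 2027 and 1715 TPM in C3G-KO. Of 8 trophectoderm markers 4 were tested, 2 of them lower (Cdx2 and Krt7), and their sum ran from 8.02 to 8.24 scaled TPM in WT and was 3.34 and 3.54 in C3G-KO. Of 8 markers of fibroblasts and feeder cells 2 were tested and both were lower (Col1a1 and Thy1). The sums were 3.77 to 4.61 against 1.73 and 1.66 scaled TPM. The 4 early mesoderm markers summed to 3.71 to 4.73 against 1.18 and 1.77 scaled TPM, with T (brachyury) the tested one and lower. Most of this sum was T, at 3.28 to 4.25 scaled TPM in WT and 0.91 and 1.46 in C3G-KO. The 9 markers of primitive and visceral endoderm summed to 4.23 to 4.404 against 7.79 and 10.7 scaled TPM, or 4.66 to 5.87 against 4.81 and 9.7 TPM as deposited, with Dab2 tested and higher, and the 4 early neural markers summed to 1.85 to 3.02 against 3.27 and 4.01 scaled TPM, ranges that overlap as deposited. Neither Dppa5a nor Dab2 passed as deposited, and Cdx2 is also one of the activators above. Cdx2, Krt7, Col1a1, Thy1 and T met the expression filter only through WT, which favoured a call of lower for them. No marker was at 0 in every sample. The part of these cells in the fall of the tight junction genes was not tested.

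Within 50 kb of the 9 genes lay 26 other tested genes, of which 5 were lower, 6 were higher and 15 did not pass after scaling, beside 16.6% of all genes lower and 14.1% higher, with a median log2 fold change of -0.04. The lowest of the 26, chosen after its values were seen, was Tnfrsf12a, a receptor of the TNF family near Cldn6, with 18.77, 18.99 and 19.47 TPM in WT and 3.42 and 4.34 TPM in C3G-KO (adjusted p = 0.000527 from limma).

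Among 6872 genes with a mean of at least 5 TPM, those with the profile nearest to that of Cldn6 over the 5 samples were R3hcc1, Tpm2, Ctsb, Id3 and Cldn4, at root mean square differences of 0.05 to 0.07 on the log2 scale. Cldn4, at 0.07, ranked 5, followed among the tight junction genes by Cldn7 at rank 103, Cgn at 172, F11r at 179, Tjp1 at 372 and Cldn12 at 523. The nearest to Tjp1 were Bcl3, Cdkn1c, Def6, Ptprf and Tsc22d4, at 0.04, and of the tight junction genes F11r came closest to Tjp1, at 0.12 and rank 262, and the others compared, without Cldn3 and Ocln, ranked from 1020 (Cldn12) to 5050 (Cldn7). The likeness is a description over 5 samples in 2 groups and was not tested.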

How the data were processed

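Paired-end reads were obtained from total RNA of 3 WT and 2 C3G-KO samples of ES cells. The authors aligned the reads to GRCm38 with STAR and deposited TPM for 142647 Ensembl transcripts, rounded to 2 decimals. The submitters' processing notes list bcl2fastq 2.20, FastQC 0.11.7, STAR 2.5.1b and RSEM 1.2.31. TPM keep no read numbers, so the depth per sample and counting errors are unknown, and the number of samples limits the precision. GENCODE M21 matched 141524 transcripts, and 1123 were left out. TPM were summed per symbol (113 of the 55147 symbols hold more than 1 gene identifier). Symbols that reached 1 TPM in 2 or more samples were tested, which left 12518.

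Samples were divided by median-of-ratios factors (1.10 to 1.33 in WT, 0.618 and 0.905 in C3G-KO) and compared with limma 3.58.1 (R 4.3.3, mean-variance trend, two-sided) on log2(TPM + 1), with Benjamini-Hochberg adjustment over all tested genes. Prior degrees of freedom were 3.11, beside 3 residual ones, and infinite for TPM as deposited, whose p-values thus do not use a gene's own spread. Every adjusted p in the text is from limma. The test was also run on simulated data in which few genes changed, as many up as down, all at higher TPM than Cldn3 and Ocln. That setting differs from these data, so the run does not bear on the calls.

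The 9 genes, the lists and the tests were chosen with earlier results of these data known. The genes named are the 9, Rapgef1, Cdh1, Epcam, up to 3 genes per role group with the largest called change, list genes with at least 10 TPM in WT, and the 5 nearest profiles to Cldn6 and Tjp1. Some list genes and a role group are not reported here. Of 39 list names beyond claudins 2 were not matched. Alternatives were TPM as deposited, scaling to protein-coding TPM, quantile normalization, a filter of 5 TPM, no filter, a pseudocount of 0.1 or 5, limma without the trend, a length and GC correction, a replicate block with and without that correction, protein-coding transcripts alone, and each sample left out. Promoter windows are from RefSeq (GRCm38.p6). Python 3.11.15, pandas 2.3.3, scipy 1.17.1 and matplotlib 3.10.9 were used.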

Additional observations from a re-analysis of the deposited data

How the results depend on the processing

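Of the 9 tight junction genes, 8 kept their direction and an adjusted p under 0.05 from limma in each of the 17 alternatives in which they were tested, and Cldn12 lost its call in 7. Cldn3 and Ocln were not tested with the filter of 5 TPM. The median log2 fold change of the 9 was -1.42 with TPM as deposited, -1.16 with scaling to protein-coding TPM and -0.48 with a pseudocount of 5, which by construction shrinks low genes. The tight junction list had 24 lower genes as deposited, 7 without a filter, 6 with the filter of 5 TPM, and 5 to 11 with a sample left out. It had 0 higher genes as deposited and with protein-coding scaling, 1 without a filter and with the filter of 5 TPM, 4 with the length and GC correction, and 1 to 2 with a sample left out. Over all genes, 7109 were lower and 181 higher as deposited, 3732 and 707 with protein-coding scaling, 1145 lower with the filter of 5 TPM (fewer genes tested), and 1323 to 1844 lower and 890 to 1559 higher with a sample left out. Higher calls were 45.8% of all calls after scaling, 2.48% as deposited and 15.9% with protein-coding scaling, which set the median gene at -0.17. As deposited, Jam2 turned to -0.25 and Cgnl1 to -0.12. Epcam ran from -0.29 to 0.032 with a sample left out, the latter without C3G-KO replicate 1. With a C3G-KO sample left out, the lone sample is assumed to vary like WT. Whether the replicate numbers pair the samples could not be decided (correlations of deviations -0.179 for number 1 and 0.181 for number 2). With 2 C3G-KO samples, their deviations from the group mean mirror each other, so the correlations of either sample fix those of the other. The original name of C3G-KO replicate 2 also carries a different number. A replicate block, in which WT replicate 3 has no partner, gave 1814 lower and 1488 higher genes and 1 higher gene of the tight junction list, and Cldn12 lost its call (adjusted p = 0.0733 from limma). With the block and the length and GC correction Rapgef1, at -0.41 (adjusted p = 0.00444 from limma) after scaling alone, did not pass (-0.20, adjusted p = 0.125). The correction moved the Spearman correlation of fold change with length from -0.314 to -0.0362, taken over genes, which are no independent replicates. The causes of these differences were not tested.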
